A study of Homo sapiens with 12 samples.

Results

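The genes described here are the p53 family members TP63 and TP73, the p53 regulators MDM2 and MDM4, and the p53 target genes CDKN1A, GADD45A, SESN1, BBC3 and BAX. They were chosen by name, 9 of 20037 protein-coding genes, and every line of the deposited peak list whose summit lay inside one of them or within 10 kb of it was taken, 67 of 188019 summits. Accessibility was measured by ATAC-seq: a transposase cuts and tags open DNA, and accessible sites therefore yield many fragments. The cells were HT1080, an established human fibrosarcoma line, left to migrate for 48 h through rat tail type-I collagen. The low group had 0.3 mg/mL of collagen, the medium group 1.0 and the high group 1.7, and each comprised 4 libraries. In all 3 groups matrix metalloproteinases were blocked with the broad inhibitor GM6001 (20 µM), so no untreated cells were part of the design. A single peak list represented the 12 libraries, with no value per library or group, so differences between the concentrations were not analysed here, the depth per library is unknown, and each value below is 1 value for the whole series, with no replicates and no test. The fibrosarcoma label was checked on marker genes: 7 of 7 mesenchymal genes had a summit within 1000 bp of a start, against 2 of 7 epithelial genes (EPCAM and CDH3) and 2 of 7 blood genes (CD3E and SPI1), where 65.9% of all coding genes did. The enrichment of these start summits, defined below, was 6.27 to 15.1 for the mesenchymal genes, 2.11 and 2.20 for the epithelial pair, and 8.44 and 14.5 for the blood pair, so the blood pair lay within the mesenchymal range.

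The p53 protein is a transcription factor that stops the cell cycle, starts cell death or adjusts metabolism after DNA damage and other stress, by binding response elements in its target genes. MDM2 binds p53 and marks it for degradation, MDM4 is its partner, and MDM2 is itself a p53 target, which closes a negative feedback loop. TP63 and TP73 encode relatives with the same DNA-binding fold, known for their roles in stratified epithelia (TP63) and in ciliated cells and neurons (TP73). HT1080 cells are usually described as retaining functional p53; the activity of p53 in these cultures was not analysed here.

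Open chromatin at MDM2 was split between its alternative promoters, and the sequences are shown first because the downstream one is the promoter known to respond to p53. The lines give the 250 bases before each start of the RefSeq promoter table (GRCh38.p14), written 5′ to 3′ on the plus strand of chromosome 12. The upstream start, at 68808172, is preceded by chr12:68807922-68808171, and the downstream start, at 68809017, by chr12:68808767-68809016. Capitals mark stretches of 20 letters that differ from the consensus p53 site (2 adjacent copies of the 10-letter p53 element) at 3 positions or fewer.
MDM2 upstream start: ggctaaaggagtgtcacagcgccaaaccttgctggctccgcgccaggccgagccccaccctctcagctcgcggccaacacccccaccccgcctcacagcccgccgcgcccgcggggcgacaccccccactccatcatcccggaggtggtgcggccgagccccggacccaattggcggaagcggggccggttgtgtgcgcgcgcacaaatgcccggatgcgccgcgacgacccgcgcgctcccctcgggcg
MDM2 downstream start: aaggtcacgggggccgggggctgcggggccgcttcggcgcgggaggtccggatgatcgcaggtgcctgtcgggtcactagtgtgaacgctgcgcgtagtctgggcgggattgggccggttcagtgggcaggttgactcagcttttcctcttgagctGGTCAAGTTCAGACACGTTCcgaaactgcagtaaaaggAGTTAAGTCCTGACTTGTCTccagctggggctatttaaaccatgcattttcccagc
The window of the upstream start held no such stretch. That of the downstream start held a pair, the first with 2 mismatches from 94 to 75 bp before the start and the second with 3 mismatches from 56 to 37 bp before it. A window before a coding start held a stretch with at most 2 mismatches in 0.491% of 22183 cases and one with at most 3 in 4.04%. The same search found 1 stretch each at the second of 3 tabulated TP73 starts (2 mismatches, chr1:3690591-3690620) and at the third SESN1 start (3 mismatches, chr6:109009013-109009042, minus strand), shown with 5 bases on either side.
TP73 start 2: tcaccGGGCAAGCTGAGGCCTGCCCcggac
SESN1 start 3: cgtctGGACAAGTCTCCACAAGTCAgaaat
These matches describe letters, not binding. The limit of 3 mismatches was chosen after the sequences were seen. The single 10-letter element without mismatch, which 5.28% of windows held, was found at the third SESN1 start alone among the tabulated starts of the 9 genes.

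The search for p53-like letters and the peak list met differently at these loci. At MDM2, the stretch with 2 mismatches lay 49 bp from a summit of 7.37-fold enrichment and 1019 fragments of pileup, inside the called interval, and the other stretch lay 87 bp from it. Enrichment is the authors' fold over the local background at the summit. Pileup is the count overlapping the summit, recovered from the enrichment and the p-value. Its unit is called fragments here, but the sources do not say whether fragments or single reads were counted. At SESN1 the stretch lay inside a called interval, 526 bp from its summit, which had an enrichment of 14.4. At TP73 no interval covered the stretch, and the closest summit was 1849 bp away with an enrichment of 1.49.

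No summit lay within 1000 bp of a tabulated start of the p53 relatives TP63 and TP73. For TP63, a gene of 301 kb (chromosome 3, 189596746 to 189897276), the tabulated start is at 189631389 and the closest summit was 33.1 kb downstream of it. This is the only TP63 start in the promoter table, so any other TP63 promoter was not examined as a start. All 5 TP63 summits lay inside the gene. Their enrichments were 5.82, 3.00, 12.9, 8.86 and 3.71 in order along the gene, with pileups of 123, 63, 351, 191 and 78. The 12.9-fold summit, at 189710799, stood 79.4 kb after the start and exceeded 94.9% of all summits in the list by enrichment. Per length, summits were sparse at TP63, with 1.56 summits per 100 kb of gene and flanks, against a median of 5.89 over all coding genes. The TP63 window was long, 321 kb against a median of 44.1 kb. By count TP63 was not low, with 5 summits against a median of 3.

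TP73 (chromosome 1, 3652516 to 3736201) had 14 summits, most of them weak. Enrichments of 11 of them lay between 1.49 and 2.20, with pileups of 40 to 88. The remaining values were 10.2 at 2416 bp before the first start, 5.64 at 2234 bp before the third start, and 2.74 inside the gene. Within 1000 bp of the summit with 10.2, at 3650100, lay an end of the neighbouring gene WRAP73, which encodes a WD-repeat protein. No summit was within 1000 bp of any of the 3 tabulated TP73 starts; the smallest distance was 1925 bp. Without the summit beside WRAP73, the strongest at TP73 was the 5.64-fold one, with a pileup of 245.

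**Figure D1:**
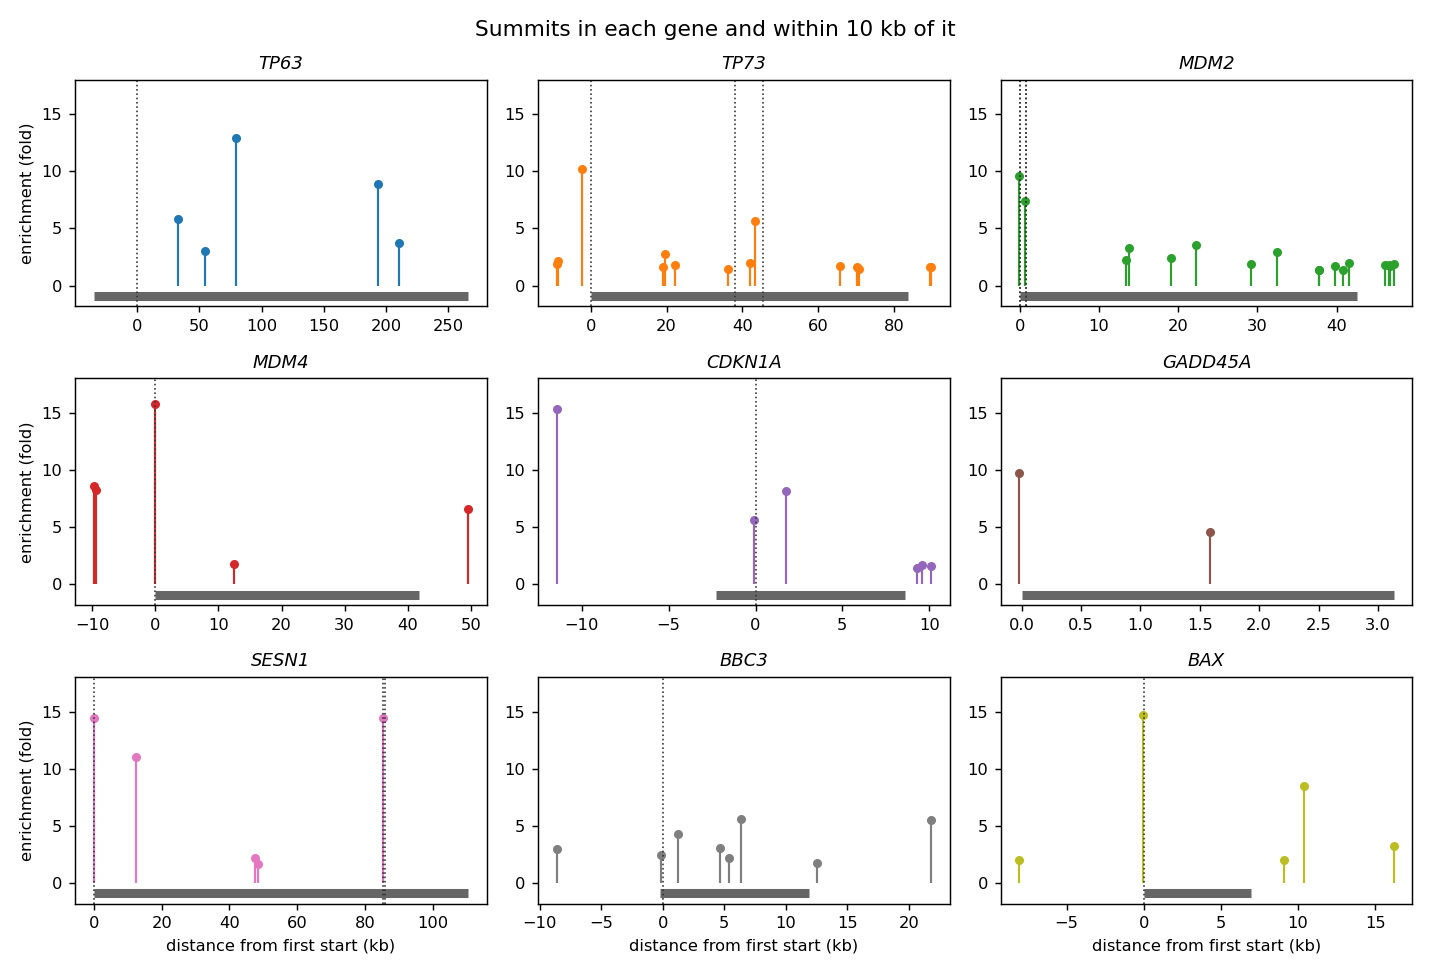
Enrichment (fold, vertical) of each summit against its distance from the first tabulated start (kb, horizontal, transcription to the right; GADD45A from its lower-coordinate end). Grey bars are genes and dotted lines tabulated starts: TP63 and TP73 have no summit at a tabulated start, while MDM2 has one at each of its promoters (9.62 and 7.37).

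Both negative regulators were open at their starts. MDM2 (chromosome 12, 68808172 to 68850686) had 1 interval of 1469 bp over both promoters. Its summits were at 68808127, 45 bp before the upstream start, with 9.62-fold enrichment and a pileup of 1333, and at 68808874, 143 bp before the downstream start, with 7.37 and 1019. The summits stood 747 bp apart, over backgrounds of 138 and 137 fragments, so their pileups differed by 1.31 times. The remaining 15 summits at MDM2 were much lower, at 1.36 to 3.54-fold and 61 to 153 fragments. Their local background ran from 26.3 to 75.1 fragments, above the genome-wide value of 20.3 fragments throughout. MDM2 also had the highest density of summits among the 9 genes, 27.2 summits per 100 kb, and 10 of its 17 summits had an enrichment under 2. Several of the 17 shared an interval. Counted by interval MDM2 was not the densest, with 10 intervals in 62.5 kb against 6 in 32.0 kb at BBC3.

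MDM4 (chromosome 1, 204516406 to 204558120), whose product binds p53 and pairs with MDM2, had 5 summits, 1 of them at its start. The start summit had the highest enrichment of the 67 summits, 15.8, at 204516404, 2 bp before the start, with a pileup of 1159. A second site lay upstream, with summits 9730 and 9449 bp before the start at 8.57 and 8.28-fold and pileups of 841 and 809. Both of these lay within 1000 bp of the lysine transfer RNA genes TRK-TTT3-1 and TRK-TTT3-2. Inside the gene there was 1 weak summit (1.78), near the pseudogene LOC100291628, and a 6.57-fold summit lay 49.6 kb after the start, beyond the gene.

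CDKN1A encodes p21, the inhibitor of cyclin-dependent kinases through which p53 arrests the cell cycle. At this gene (chromosome 6, 36676463 to 36687332) the start was not the strongest site. The summit 95 bp before the start, at 36678619, had 5.64-fold enrichment and a pileup of 1646. A summit at 36680443, 1729 bp after the start, had 8.13 and 2444. A distant one, 11.4 kb before the start at 36667267, had 15.3 and 1040, the highest enrichment at the gene. By pileup the order was different, since the local background was 291 and 299.9 fragments at the summits near the start and 66.9 at the distant one. Between the distant summit and the one at the start the list held none. The well-known p53 sites of CDKN1A lie upstream of its start. They were not located here, so whether any of them lies at a summit was not determined. The gene as annotated begins upstream of its only tabulated start, and any other CDKN1A promoter was not examined as a start. An end of DINOL, a long noncoding RNA known to be induced by p53, was within 1000 bp of the start summit. The other 3 summits shared 1 interval beyond the 3′ end, at 1.42, 1.67 and 1.62-fold.

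GADD45A, a growth arrest and DNA damage gene (chromosome 1, 67685201 to 67688334), was covered over most of its length by 1 interval of 2051 bp. One summit lay 18 bp outside its lower-coordinate end, at 9.78-fold and 2036 fragments. The other lay 1586 bp inside the gene, at 4.54-fold and 945 fragments; the background was 207 fragments at both, and the pileups had a ratio of 2.15. A p53 response element is known in the third intron of GADD45A; exon boundaries were not used here, so whether the inner summit falls in that intron was not determined.

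SESN1 encodes sestrin 1, a stress protein that restrains growth signalling through mTORC1. Both of its separate promoter regions (chromosome 6, 108984309 to 109094846, minus strand) were open with the same enrichment. The summit 85 bp before the first start, at 109094931, reached 14.4-fold with a pileup of 3528, the highest pileup of the 67 summits. An end of CEP57L1, a gene related to that of the centrosomal protein CEP57, was within 1000 bp of it. The summit 11 bp before the second start, at 109009563, also had 14.4 but a pileup of 623. The pileups differed by 5.66 times and the local backgrounds by 5.77 times, so the equal enrichments did not reflect equal numbers of fragments. Another strong summit, 12.5 kb after the first start, was 11.0-fold, with 234 fragments over the genome-wide background. The 2 other SESN1 summits were weak, at 1.69 and 2.20.

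The 2 genes of the mitochondrial death pathway differed. BAX (chromosome 19, 48954875 to 48961798) encodes a protein that permeabilizes the outer mitochondrial membrane. Its start summit, 60 bp upstream at 48954815, stood at 14.7-fold and 1186 fragments. No summit lay inside BAX. A summit with 8.52 and 2217, the highest pileup in the BAX window, was 10.4 kb after the start, within 1000 bp of an end of FTL, the ferritin light chain gene. The 3 others had 2.01, 2.03 and 3.22.

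BBC3 (chromosome 19, 47220824 to 47232860, minus strand) encodes PUMA, a BH3-only protein that activates BAX. Its start summit, 175 bp upstream at 47232842, was 2.50-fold with a pileup of 419, the lowest start values among the 7 genes with a start summit. Only 1 BBC3 start was in the promoter table, so any other BBC3 promoter was not examined as a start. Higher enrichments lay inside the gene: 4.34 at 1274 bp after the start, with a pileup of 982, and 5.59 at 6379 bp, with a pileup of 1225. The latter shared an interval of 2490 bp with 2 more summits (3.05 and 2.20), and ends of the microRNA genes MIR3190 and MIR3191 were within 1000 bp of all 3. The local background over these 5 summits was 167 to 267 fragments, between 8.23 and 13.1 times the genome-wide value. At the edge of the 10 kb window, a summit 9.95 kb from BBC3 (5.50, beside SAE1, a gene of SUMO activation) was counted and a summit 11.5 kb away (12.6) was not.

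Over the 9 genes, 7 had a summit within 1000 bp of a start, against 65.9% of 20037 coding genes (67.6% of those in the promoter table, counted by start, and 59.3% of the rest, counted by either end), and all 9 had one inside the gene or within 10 kb, against 89.8%. With 9 genes, 7 is near the background share and is no result about the group. The median of the strongest start enrichment was 9.78 over the 7 genes and 11.9 over the 13206 coding genes with a start summit. In pileup the order of the medians was the reverse, 1333 and 765 fragments. The shift was seen gene by gene in the share of coding start summits that lay lower. CDKN1A exceeded 19.2% of them by enrichment and 80.3% by pileup. GADD45A exceeded 37.0% and 87.1%, MDM2 36.2% and 72.4%, SESN1 71.5% and 97.8% at its first start, and BBC3 7.57% and 31.2%. MDM4 (83.7% and 66.7%) and BAX (74.1% and 67.6%) went the other way. So did the second SESN1 start, equal in enrichment, which exceeded 42.3% by pileup; with it in place of the first, the median pileup of the 7 genes was 1186.

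**Figure D2:**
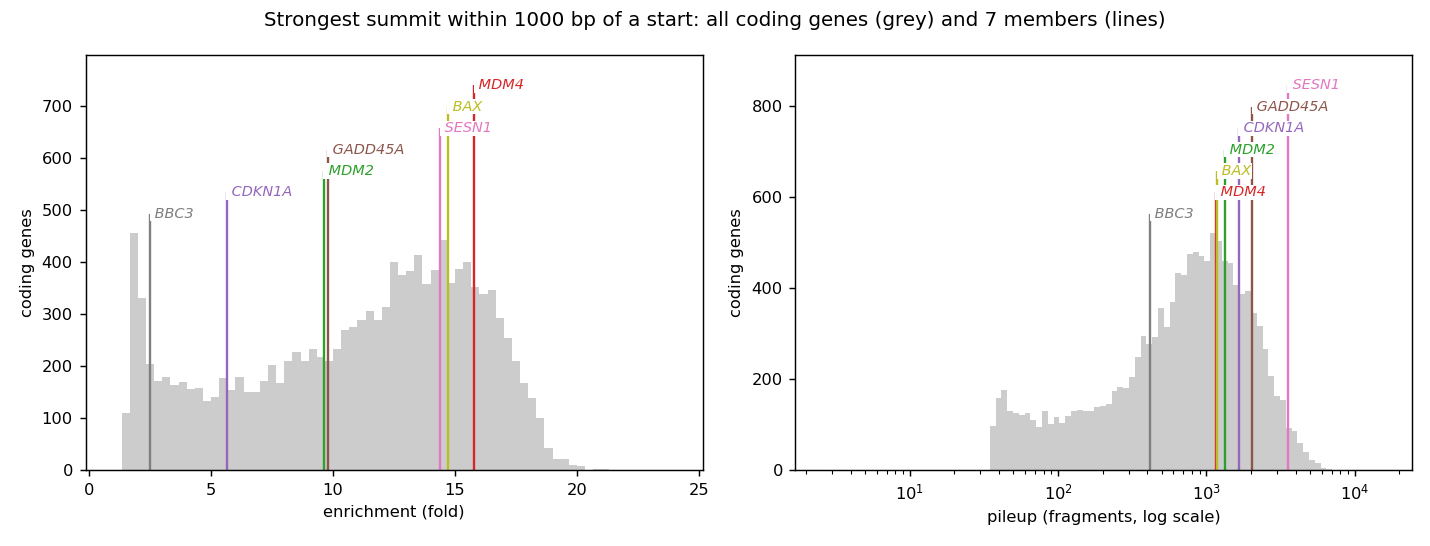
Number of coding genes (vertical) by enrichment (fold, left) and pileup (fragments, log axis, right) of their strongest summit within 1000 bp of a start, with 7 of the 9 genes as labelled lines. CDKN1A stands low by enrichment (5.64) and high by pileup (1646).

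Summits near the tabulated starts lay upstream of them. Of the 15 tabulated starts of the 8 genes with promoter entries, 11 had a summit within 1000 bp, and the closest one was upstream of all 11, by 2 to 575 bp and by a median of 85 bp. These 11 starts shared 8 summits, since neighbouring starts of MDM2 and SESN1 had the same closest summit; the 575 bp belonged to the third SESN1 start. Over 13899 coding starts with a summit within 1000 bp, 69.6% had the closest one upstream, and the median was 61 bp upstream. The 9 summits near starts, GADD45A included, had medians of 9.78 in enrichment and 1186 in pileup. The 58 farther ones had 2.20 and 107. Of these 58, 4 had an enrichment above 10: the CDKN1A summit 11.4 kb upstream, the TP63 summit, the SESN1 summit 12.5 kb after the start and the TP73 summit beside WRAP73.

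Local background was raised at most of these sites. It equalled the genome-wide value at 7 of the 67 summits (10.4%), against 53.03% of the whole list, and those 7 were at TP63, SESN1 and MDM4. The median background was 44.6 fragments at the 67 summits and 20.3 over the list. Their median enrichment was 2.50 against 4.27, while the median pileup was 123 against 101. The whole list includes many summits far from genes, so these medians compare unlike places. No control library was among the 12. Summits close to each other had similar raised backgrounds, 291 and 299.9 fragments at CDKN1A summits 1824 bp apart and 207 at both GADD45A summits. Whether neighbouring summits added to the local background, and so lowered enrichment, was not tested. An enrichment under 2 was found for 26 of the 67 summits, 10 each at TP73 and MDM2. Over the whole list it was 22605 of 188019, a smaller share than the 38.8% here.

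**Figure D3:**
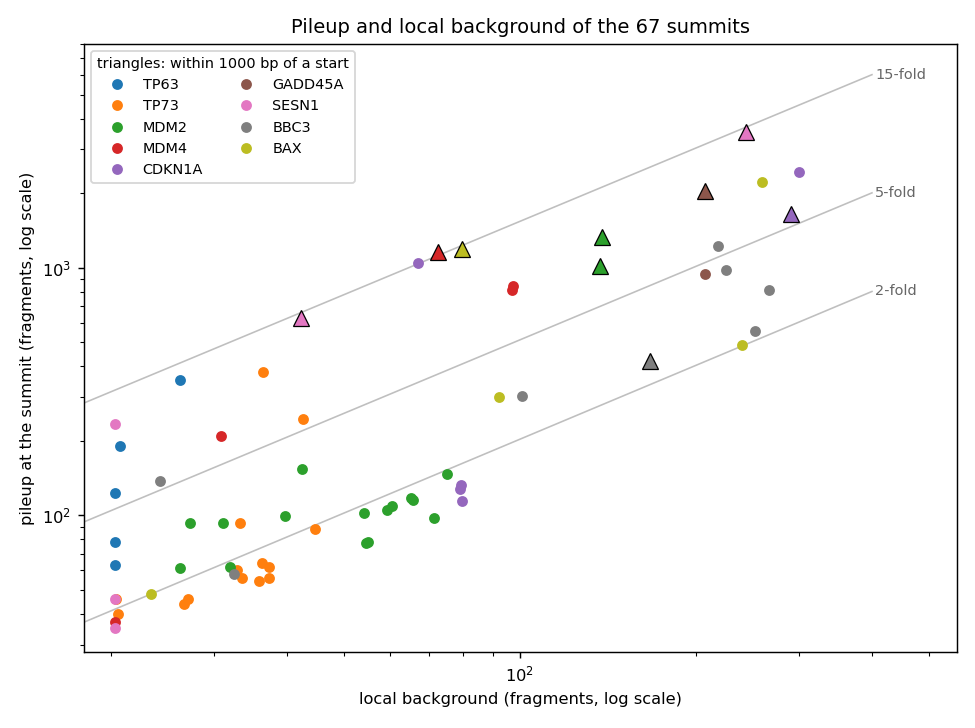
Pileup (fragments, vertical) against local background (fragments, horizontal), both on log axes, for the 67 summits; triangles lie within 1000 bp of a start and grey lines mark equal enrichment. The SESN1 triangles, at pileups of 3528 and 623, lie along the same enrichment of 14.4.

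Base composition of the starts did not follow their accessibility in every gene. The 250 bases before 3 starts that differ in this respect are shown: CDKN1A (chr6:36678464-36678713, plus strand), the first SESN1 start (chr6:109094847-109095096, minus strand) and TP63 (chr3:189631139-189631388, plus strand). Capitals mark the GC box GGGCGG, the letters bound by SP1, on either strand.
CDKN1A start: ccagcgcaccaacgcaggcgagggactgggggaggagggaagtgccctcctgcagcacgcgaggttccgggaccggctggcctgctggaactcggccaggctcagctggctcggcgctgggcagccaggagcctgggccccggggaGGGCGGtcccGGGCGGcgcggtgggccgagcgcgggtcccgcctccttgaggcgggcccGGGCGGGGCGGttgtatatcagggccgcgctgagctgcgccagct
SESN1 first start: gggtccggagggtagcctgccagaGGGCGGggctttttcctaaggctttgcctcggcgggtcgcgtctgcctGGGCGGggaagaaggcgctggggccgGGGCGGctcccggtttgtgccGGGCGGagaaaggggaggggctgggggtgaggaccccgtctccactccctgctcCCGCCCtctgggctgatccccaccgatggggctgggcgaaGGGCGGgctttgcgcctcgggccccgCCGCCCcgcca
TP63 start: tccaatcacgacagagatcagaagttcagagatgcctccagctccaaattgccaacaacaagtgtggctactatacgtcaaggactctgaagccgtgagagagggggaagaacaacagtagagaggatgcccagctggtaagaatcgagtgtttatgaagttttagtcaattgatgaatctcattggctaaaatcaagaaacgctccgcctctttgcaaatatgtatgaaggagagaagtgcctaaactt
The GC box occurred 7 times at the first SESN1 start, 4 times at CDKN1A and 0 times at TP63, and 53.7% of coding windows held at least 1. G and C made up 74.4%, 76.4% and 44% of these windows. Coding starts with a summit within 1000 bp had a median of 65.6% (quartiles 58.4 and 72.4) and those without one 52.8% (quartiles 42.8 and 63.2), so TP63 lay within the range of the latter. The first TP73 start did not: its window had 77.2% G and C and a CpG ratio (observed over expected CpG) of 1.02, above the upper quartiles of the starts with a summit, 72.4% and 0.942, but no summit was near. BBC3 had a start summit, the weakest of the genes with one, at a tabulated start poor in G and C. Its window had 49.2% G and C and a CpG ratio of 0.278, below the medians of 52.8% and 0.321 of starts without a summit. This is the only BBC3 start in the promoter table, so the values do not describe any other BBC3 promoter.

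Other letters were scattered over the starts. The AP-1 element TGANTCA, which 5.35% of windows held on either strand, occurred once at BBC3, from 113 bp before the start, and once at the downstream MDM2 start, from 118 bp before it. CCAAT was found on 1 strand or the other at TP63, the third TP73 start, MDM2, BBC3, BAX and the second and the third SESN1 start, and in 32.7% of coding windows. TATAAA was in none of the tabulated windows of these genes and in 9.01% of coding windows. Promoter entries were used for 8 of the 9 genes; GADD45A had none.

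The wider p53 pathway was described with a list of 40 other genes in 4 roles. A summit lay within 1000 bp of a start in 34 of 40 (85%, beside 65.9% of coding genes), with a median enrichment of 13.3. The share was 10 of 11 for upstream and feedback genes, from 11.5 at USP7, the deubiquitinase of MDM2 and p53, to 17.1 at ATM, the kinase that signals DNA breaks. It was 6 of 8 for cell cycle arrest, from 7.16 at GADD45B to 17.0 at CDC25C, a phosphatase that promotes mitotic entry. Among death genes it was 10 of 12, from 6.35 at TNFRSF10B, a death receptor, to 14.4 at APAF1, the scaffold of the apoptosome. For repair and metabolism it was 8 of 9, from 11.4 at DDB2, a DNA damage sensor, to 18.6 at TIGAR, a regulator of glycolysis. TNFRSF10B, PHLDA3, RRM2B and TP53INP1 had no tabulated start and were counted by either gene end. The highest enrichment in TNFRSF10B and its 10 kb flanks was 12.5.

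Among the 6 pathway genes without a start summit, CDKN2A alone had 0 summits in the gene and its 10 kb flanks. It encodes p16 and the MDM2 inhibitor p14ARF. A lack of summits does not show that the DNA of a gene is present and closed. Whether CDKN2A is present in these cells was not tested. The other 5 had at least 1 summit in the wider window, with a highest enrichment of 16.1 for SFN, 3.03 for GADD45G, 2.46 for TP53AIP1, 12.6 for PIDD1 and 18.6 for SESN3. All 6 were judged by tabulated starts, so any other promoter of these genes was not examined.

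**Figure D4:**
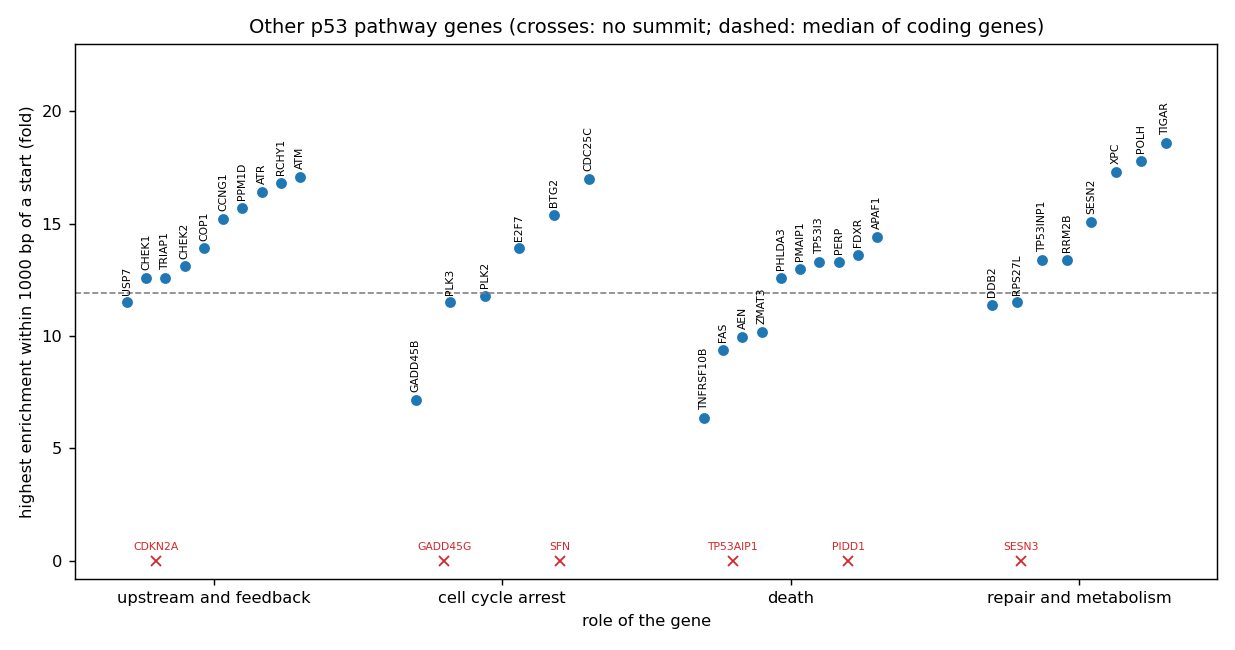
Highest enrichment within 1000 bp of a start (fold, vertical) for the 40 listed genes by role; crosses at 0 mark genes with no start summit and the dashed line the median of coding genes with one, 11.9. TIGAR is highest at 18.6 and TNFRSF10B, counted by either gene end, is the lowest dot at 6.35.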

How the data were processed

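The 10-column peak list was deposited by the authors as 1 file with no header and no column for a library. Per the submitters' processing notes, the build was hg38 and the tools included fastp 0.20.0, Bowtie2 2.4.3, SAMtools, deepTools 3.5.0 and MACS2 2.2.7.1; parameters, duplicate handling and the pooling step are not given in the sources used here. The deposited enrichment was read as a ratio (fold over local background). Significance was deposited as −log10 of the p-value and of the q-value, and the lowest −log10 q was 1.30. The deposited score equalled 10 times the −log10 q, truncated, in 99.8% of lines.

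Pileup and local background were solved from enrichment, taken as (pileup + 1)/(background + 1), and a Poisson upper tail (scipy 1.17.1). The pileup came out whole, within 0.05, in 99.96% of lines. The recovery was tested on simulated data. Background counted as genome-wide within 0.2% of its lowest value, 20.3 fragments. More sequencing raises pileups and −log10 p, so neither is a depth per library.

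Genes came from RefSeq GRCh38.p14. Starts came from its promoter table, which held 15843 of the 20037 coding genes; for the other 4194, GADD45A among them, either gene end counted as a start. Motifs were searched in the 250 bases before 22183 coding starts. No test was made; the planned one between concentrations had no values per library. All 9 genes were named; of the pathway list, genes without a start summit and the highest and lowest of each role; and coding genes beside each gene's strongest summit. FTL, SAE1 and the noncoding neighbours were named after their values were seen. A role group of the planned pathway list is not reported here. The genes and lists were chosen with earlier results of these data known.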

Additional observations from a re-analysis of the deposited data

How the results depend on the processing

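No paired analysis was possible because the list holds no column per library, so fits with a replicate block, without single replicates or between concentrations were not run. The number of genes with a start summit was 7 or 8 of 9, while the share of coding genes ran from 60.8% to 72.3% (distances of 500 and 2500 bp, −log10 q of at least 10, intervals of at most 10 kb, any overlap, either gene end). The pathway list gave 34 to 37 of 40. With tabulated starts alone, 6 of 8 genes, 30 of 36 pathway genes and 67.6% of 15843 coding genes had one. The last 2 settings were chosen after seeing the data. With 2500 bp, TP73 also counted, through the summit beside WRAP73 and 2 others. The 67 summits became 39 in gene bodies alone, 132 in a window of 50 kb and 38 at a −log10 q of at least 10. The median of the highest enrichment in the gene or within 10 kb was 12.9, against 12.4 over coding genes with a summit there. It became 6.50 in gene bodies alone and 14.4 within 50 kb. The median of the highest pileup in the same window, a measure apart from the start pileup, was 1333 against 779, and became 784 and 2036. In gene bodies alone the start summits upstream of genes were left out by construction. The depth per library is unknown, which limits what weak summits can show.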

Other observations

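Paralogues of the target genes differed at the starts used here. Among the sestrins, SESN1 had a start enrichment of 14.4 and SESN2 of 15.1, while SESN3 had no summit within 1000 bp of a start but 1 in its wider window, with 18.6. Among the GADD45 genes, GADD45A had 9.78 with a pileup of 2036 and GADD45B 7.16 with 1293. GADD45G had no start summit and at most 3.03 in its window. SFN, which encodes the epithelial cell cycle inhibitor 14-3-3 sigma, had 1 summit in its window, with an enrichment of 16.1, and none within 1000 bp of its start. GADD45A was counted by either gene end and the other genes here by tabulated starts, so any untabulated promoter was not examined. With a distance of 2500 bp, 37 of the 40 listed genes had a summit near a start, against 34 with 1000 bp. The paralogues come from the list given above and each value is 1 value for the whole series.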
